A study of Mus musculus with 15 samples.

Results

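Interferon-stimulated genes are the transcripts that cells switch on when they sense type I interferon, and 9 of the best known were examined here in the thymus of peptide-injected mice: Ifit1, Ifit2, Ifit3, Isg15, Rsad2, Bst2, Stat2, Usp18 and Mx1. They were picked by name, with earlier results of these data known. A gene was taken from the array when a probe set carried its symbol and no other, and 8 of the 9 had such a probe set, out of 19938 genes measured in this way. Isg15, which encodes a ubiquitin-like protein, shares its annotated probe set with the pseudogene Gm9706 and therefore has no value. Each of the 8 genes had 1 probe set, and a log2 value is comparable between mice for a gene but not between genes.

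The study measured gene expression in whole thymus of 5-week-old female mice, 2 h after intravenous injection of 0.5 µg of peptide, with 1 array per mouse (15 mice). NOD.LCMV mice received gp33 (n = 3) or a control peptide that binds the same major histocompatibility molecule, Db (n = 3). NOD.Ln82-LCMV mice received gp33 (n = 5) or that control peptide (n = 4). gp33 is a peptide of the lymphocytic choriomeningitis virus glycoprotein, and the study's title concerns Nfkbid, the diabetes locus Idd7 and the loss of CD8 T cells in the thymus of NOD mice. The labels do not say what Ln82 carries or what LCMV stands for in the strain names. Both strains share NOD and LCMV in their names, and every mouse was injected, so no uninjected thymus is part of the comparison.

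Type I interferons signal through the receptor chains IFNAR1 and IFNAR2 and the kinases JAK1 and TYK2 to a complex called ISGF3, which holds STAT2 and IRF9. ISGF3 binds the interferon-stimulated response element, a pair of GAAA blocks, in front of its target genes. Interferon gamma instead acts mainly at another element, and many genes answer to both. In the thymus, type I interferon is made without infection by medullary epithelial cells, and interferon-stimulated genes are active there at rest.

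The promoter sequences show what these genes have in common besides their name. RefSeq promoters of the assembly GRCm38.p6 were available for 7 of the 9 genes, and the 250 bases before each start were searched on both strands for GAAA, any 2 bases and GAAA again, which reads TTTC, any 2 bases and TTTC when it lies on the other strand. This motif occurred in 6 of the 7 genes, counting any promoter of a gene, against 3.46% of the 27025 genes in the table. Ifit1 and Ifit3 held it in 2 places each and Isg15 in 3. Ifit2 had none in either of its promoters, which says only that these letters are not in those windows. The 4 windows below are shown because they belong to the members with the called differences and to Ifit1, whose pair of motifs Ifit3 repeats letter for letter. Each is written 5′ to 3′ in the direction of the gene with the motif in capitals and up to 30 bases on each side.
Ifit1, chr19:34640755-34640843, plus strand: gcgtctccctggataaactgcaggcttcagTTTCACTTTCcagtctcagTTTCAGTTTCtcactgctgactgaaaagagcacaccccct
Rsad2, chr12:26456533-26456602, minus strand: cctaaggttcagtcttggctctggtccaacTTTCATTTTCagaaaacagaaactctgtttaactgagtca
Bst2, chr8:71537557-71537632, minus strand: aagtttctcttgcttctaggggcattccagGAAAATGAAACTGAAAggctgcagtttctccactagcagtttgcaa
Stat2, chr10:128270248-128270315, plus strand: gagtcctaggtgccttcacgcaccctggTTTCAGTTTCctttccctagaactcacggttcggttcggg
Counted from the start of the gene, the motifs of Ifit1 lie at -104 to -95 and -85 to -76, that of Rsad2 at -120 to -111 and that of Stat2 at -222 to -213. The run of capitals in Bst2 holds 2 overlapping matches, which begin at -130 and -124. Among 29 other type I interferon-stimulated genes with a promoter in the table, 7 held the motif (24.1%), and among 14 genes known for their response to interferon gamma 7 did (50%).

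The arrays carried the transcripts of developing T cells. Of the 9 measured thymocyte markers, Cd3e exceeded 99.7% of all genes in mean level and the lowest, Ptcra, exceeded 65.5%. Array medians lay between 7.59 and 7.67 on the log2 scale, and arrays of a group correlated at 0.9904 or more. On the mean of the 8 genes, 2 arrays lay farthest from their groups. NOD.LCMV gp33 replicate 1 deviated by 0.38 and was the highest of its group on 8 of 8 genes. NOD.Ln82-LCMV control replicate 1 deviated by -0.30 and was the lowest of its group on 5. NOD.LCMV gp33 replicate 2 lay nearly as far, at -0.28, and was the lowest of its group on 7. The mean of the 8 genes was 9.30, 8.65 and 8.83 in the NOD.LCMV gp33 mice, against 8.72, 8.69 and 8.56 in NOD.LCMV control mice. It was 9.06, 9.11, 9.13, 9.25 and 8.99 in NOD.Ln82-LCMV gp33 mice, against 8.70, 9.05, 9.04 and 9.21 in NOD.Ln82-LCMV control mice. Results that rest on the 2 farthest arrays, called outlying below, are given with and without them. In whole tissue, fewer cells of a type and less RNA per cell cannot be told apart.

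In NOD.LCMV mice, Rsad2 was the 1 gene of the 8 that rose with gp33. Its product, viperin, is an antiviral enzyme that makes a chain-terminating nucleotide. Its level (probe set 10399710) was 8.60, 7.96 and 8.05 in the NOD.LCMV gp33 mice, against 7.30, 7.49 and 7.34 in NOD.LCMV control mice. All 3 gp33 mice lay above all 3 control mice, also without gp33 replicate 1. The difference of 0.83 ± 0.17 (log2 ± SE, n = 3 each) was 1.77-fold with a 95% interval of 1.38 to 2.28, and it passed the test in limma with an adjusted p of 0.00240 over all genes. Leaving out each array in turn gave 0.63 to 0.95 with adjusted p from 0.000618 to 0.0122. An exact permutation test gave p = 0.1, the smallest that 3 mice against 3 allow. Among all genes, 19.8% were called in this comparison (7.29% higher and 12.5% lower), so 1 call among 8 is not more than the background.

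Stat2, the subunit that gives ISGF3 its activating domain (probe set 10367224), measured 10.34, 9.94 and 10.02 in NOD.LCMV gp33 mice, against 9.91, 9.98 and 9.87 in NOD.LCMV control mice. The groups overlapped, and the difference of 0.18 ± 0.08 did not pass the limma test (adjusted p = 0.145, unadjusted p = 0.0401). Leaving out each array in turn gave 0.06 to 0.26 with limma adjusted p from 0.0398 to 0.637. The lowest difference was without gp33 replicate 1. The test was passed only without gp33 replicate 2, with 0.26 and an adjusted p of 0.0398.

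The IFIT proteins bind foreign RNA and act as a family of antiviral effectors. Ifit3 (probe set 10462618) measured 9.35, 8.19 and 8.59 in NOD.LCMV gp33 mice, against 8.54, 8.28 and 8.17 in NOD.LCMV control mice. Ifit1 (probe set 10462623) measured 9.23, 8.41 and 8.84 in NOD.LCMV gp33 mice, against 8.77, 8.51 and 8.35 in NOD.LCMV control mice. Ifit2 (probe set 10462613) measured 9.28, 8.90 and 9.03 in NOD.LCMV gp33 mice, against 9.12, 9.12 and 9.08 in NOD.LCMV control mice. In all 3 genes gp33 replicate 1 was the highest mouse and the groups overlapped. Their differences of 0.38 ± 0.28, 0.28 ± 0.18 and -0.04 ± 0.07 had adjusted p of 0.450, 0.366 and 0.848 in limma.

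The remaining 3 genes also overlapped between the peptides. Usp18 encodes the protease that removes ISG15 from proteins and restrains the interferon receptor (probe set 10541307). It measured 10.47, 9.68 and 9.92 in NOD.LCMV gp33 mice, against 9.87, 9.88 and 9.61 in NOD.LCMV control mice, a difference of 0.24 ± 0.21 (limma adjusted p = 0.542). Mx1, an antiviral GTPase known to be defective in many laboratory mouse strains (probe set 10441233), measured 7.67, 6.93 and 7.09 in NOD.LCMV gp33 mice, against 7.06, 7.01 and 6.89 in NOD.LCMV control mice. The Mx1 difference was 0.24 ± 0.15 (limma adjusted p = 0.335), and its values lay near the level of 6.92 below which the dimmest 33.3% of genes fall. Bst2, the membrane tether that holds budding virus to the cell (probe set 10579532), measured 9.49, 9.20 and 9.09 in NOD.LCMV gp33 mice, against 9.22, 9.24 and 9.15 in NOD.LCMV control mice, a difference of 0.06 ± 0.11 (limma adjusted p = 0.845). Over the 8 genes 7 differences were positive and the median was 0.24, against -0.03 over all genes. The median depended on single mice: it was 0.04 without gp33 replicate 1 and 0.40 without gp33 replicate 2.

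**Figure D1:**
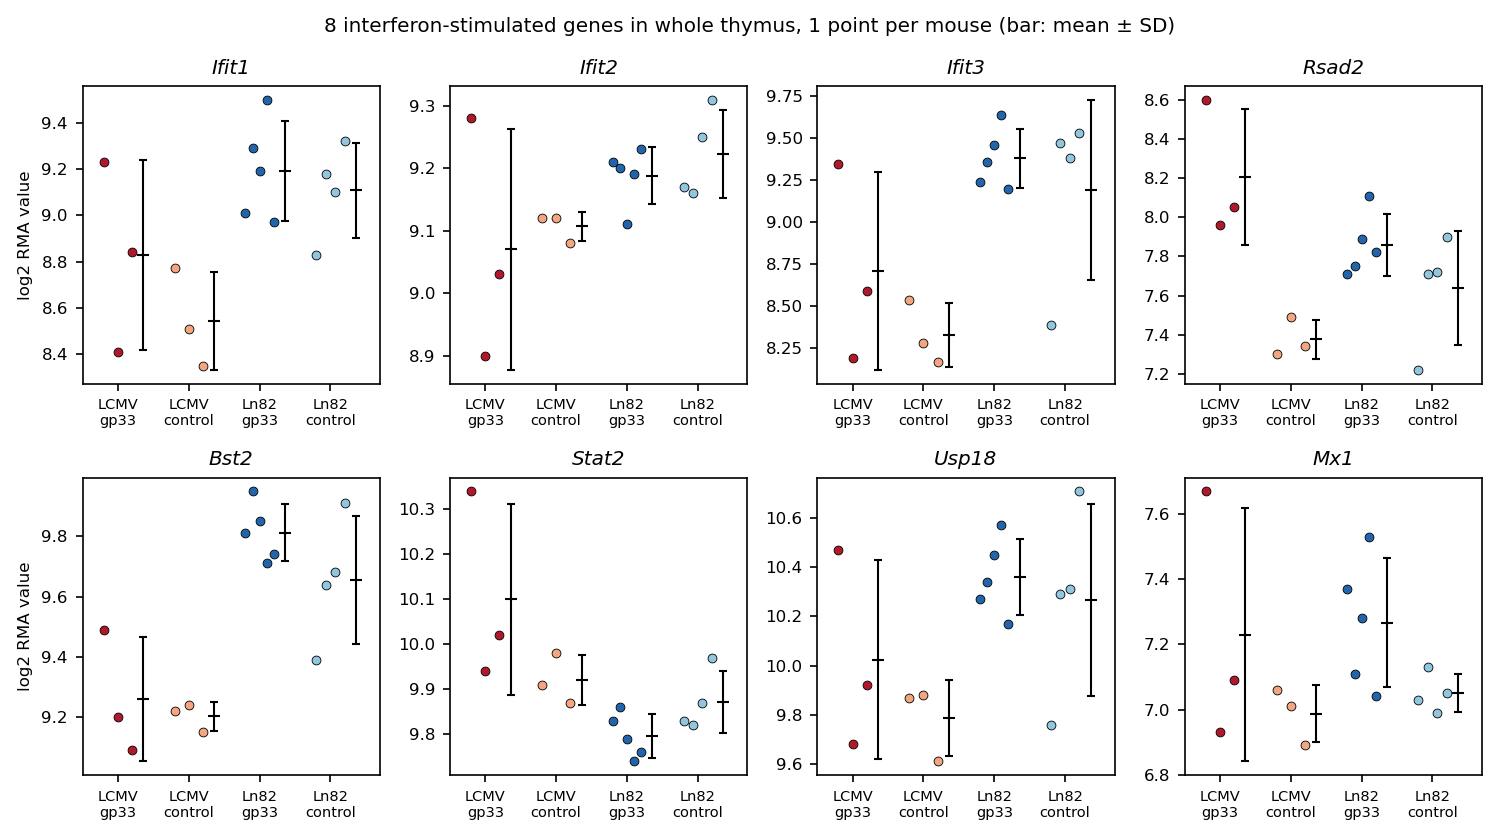
Log2 RMA value of each of the 8 genes (1 panel per gene, each with its own y axis) in every mouse, by strain and peptide, with LCMV for NOD.LCMV and Ln82 for NOD.Ln82-LCMV. Points are mice in replicate order and bars are the mean ± SD of the group; Rsad2 is the gene whose NOD.LCMV gp33 mice all lie above the NOD.LCMV control mice, and Bst2 and Stat2 separate the strains with gp33.

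The interferon system around these genes changed unevenly in NOD.LCMV mice. Of 13 measured interferon ligands only the gene of interferon gamma, Ifng, was called in this comparison (7.69%, against 19.8% of all genes). Ifng measured 8.78 to 9.53 in NOD.LCMV gp33 mice, against 6.60 to 6.75 in NOD.LCMV control mice, a rise of 2.47 ± 0.14 (limma adjusted p = 1.22e-08). Ifnb1, the gene of interferon beta, measured 5.77 to 5.82 in NOD.LCMV gp33 mice, against 5.79 to 5.98 in NOD.LCMV control mice (-0.09 ± 0.07, limma adjusted p = 0.460). These levels lay below 6.92, among the dimmest 33.3% of genes.

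Of 14 genes known for their response to interferon gamma, 10 rose and 0 fell with gp33 in NOD.LCMV mice. That was 71.4% called, against 19.8% of all genes, with a median of 1.57 over the 14. Cxcl9, a chemokine, measured 11.87 to 12.10 in NOD.LCMV gp33 mice, against 8.39 to 8.96 in NOD.LCMV control mice (3.33 ± 0.19). Gbp5, a guanylate-binding protein gene, rose by 3.23 ± 0.14, and Irf1, a transcription factor gene, rose by 1.70 ± 0.05. Of 35 other type I interferon-stimulated genes, 6 rose and 1 fell, with a median of 0.09. In all 20% of them were called, near the 19.8% of all genes. Parp14, an ADP-ribosyltransferase gene, rose by 1.01 ± 0.12 and Ifi205, of the interferon-inducible DNA sensor family, by 1.00 ± 0.13. Sp100, a nuclear body gene, fell by 0.47 on the log2 scale (SE 0.09). The 2 lists are not exclusive in biology, since many of their genes answer to both kinds of interferon.

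Of the 10 measured genes for receptors and signalling, 4 rose and 1 fell (50% called, against 19.8% of all genes). They were Jak2 (1.03 ± 0.04), which serves the interferon gamma receptor, its inhibitor Socs1 (0.96 ± 0.11), Irf9 (0.37 ± 0.09) and the phosphatase gene Ptpn6 (0.29 ± 0.07), while Jak1 fell by 0.20 (SE 0.05). The Jak1 call was lost, with an adjusted p of 0.0504 in limma, when each array was centred on its median. The receptor genes Ifnar1 (-0.04 ± 0.04) and Ifnar2 (0.07 ± 0.06) did not pass the test. Of 17 nucleic acid sensor and adaptor genes 3 rose and 4 fell (41.2% called). Among them were Myd88, an adaptor of Toll-like receptors (0.54 ± 0.06), and Tlr3, a sensor of double-stranded RNA (-0.41 ± 0.08). Markers of granulocytes moved in the same comparison, with 6 of 8 called higher, against 7.29% of all genes. Their list means were 7.71 to 8.07 in NOD.LCMV gp33 mice, against 6.84 to 7.11 in NOD.LCMV control mice. Thymocyte markers moved too, with 5 of 9 called lower, against 12.5% of all genes. Their list means were 10.93 to 11.56 in NOD.LCMV gp33 mice, against 11.45 to 11.72 in NOD.LCMV control mice. The part of either shift in the values above was not tested.

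**Figure D2:**
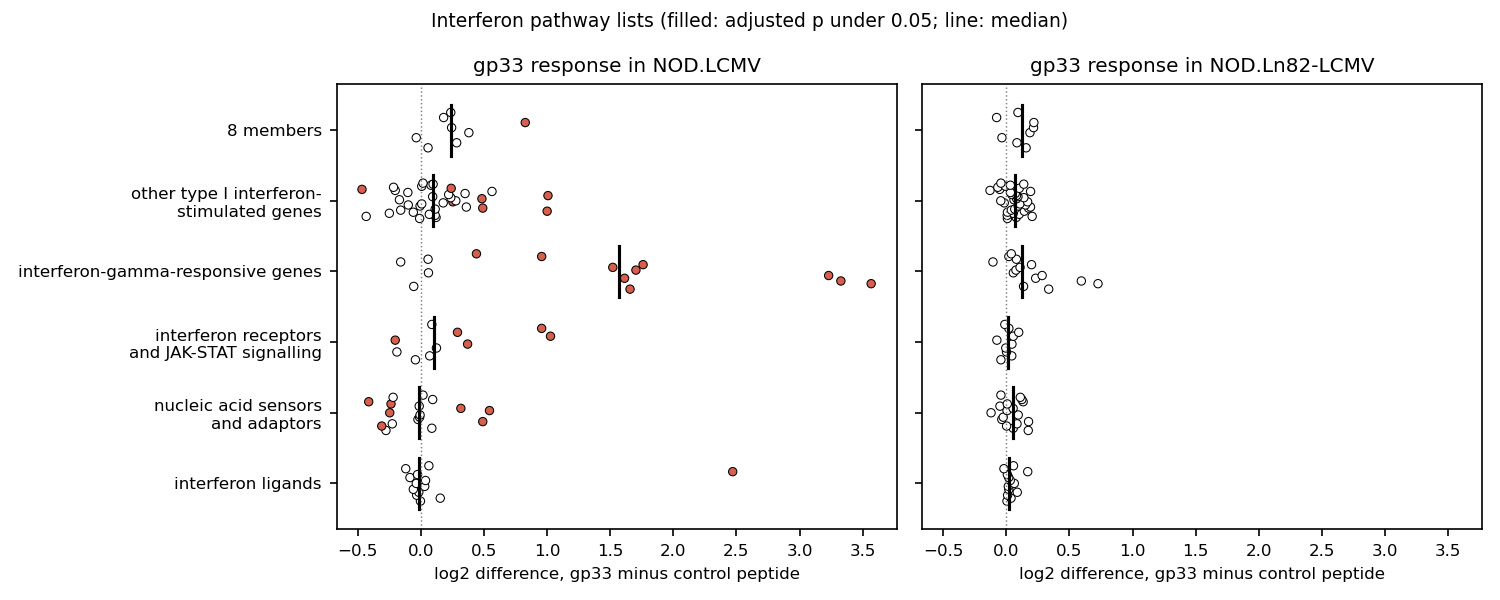
Log2 difference, gp33 minus control peptide, of every measured gene in the 8-gene set and in 5 lists of the interferon system, in NOD.LCMV mice (left panel) and NOD.Ln82-LCMV mice (right panel). Filled points have a limma adjusted p under 0.05 and the line is the list's median; in NOD.LCMV mice the interferon-gamma-responsive genes lie furthest to the right, and no point is filled in NOD.Ln82-LCMV mice.

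In NOD.Ln82-LCMV mice 0 of the 8 genes were called with gp33 by limma, and 0 had an unadjusted p under 0.05. Only 1 gene of 19938 was called in this comparison (0.00502%), so 0 of 8 is near the background. Rsad2 measured 7.71, 7.75, 7.89, 8.11 and 7.82 in the NOD.Ln82-LCMV gp33 mice, against 7.22, 7.71, 7.72 and 7.90 in NOD.Ln82-LCMV control mice. The groups overlapped, and the difference of 0.22 ± 0.14 (n = 5 and 4) was 1.16-fold with a 95% interval of 0.948 to 1.43. Without control replicate 1, the mouse with 7.22, it was 0.08.

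Mx1 had a difference of the same size, 0.22 ± 0.12, with 7.37, 7.11, 7.28, 7.53 and 7.04 in NOD.Ln82-LCMV gp33 mice, against 7.03, 7.13, 6.99 and 7.05 in NOD.Ln82-LCMV control mice. Bst2 measured 9.81, 9.95, 9.85, 9.71 and 9.74 in NOD.Ln82-LCMV gp33 mice, against 9.39, 9.64, 9.68 and 9.91 in NOD.Ln82-LCMV control mice (0.16 ± 0.09). Both had an adjusted p of 0.893 in limma and overlapping groups. The IFIT genes gave 0.19 ± 0.23 for Ifit3, 0.08 ± 0.15 for Ifit1 and -0.03 ± 0.06 for Ifit2, Usp18 gave 0.09 ± 0.17 and Stat2 gave -0.08 ± 0.07. The widest interval was that of Ifit3, 0.808-fold to 1.61-fold, so the 1.77-fold estimate for Rsad2 in NOD.LCMV mice lay outside the intervals of all 8 genes. That estimate had its own interval of 1.38 to 2.28. The interval of Rsad2 in NOD.Ln82-LCMV mice reached 1.43, so a like response was not excluded. Of the 14 interferon-gamma-responsive genes 0 were called by limma and 5 had an unadjusted p under 0.05, against 5.97% of all genes. Ifng measured 6.65 to 7.04 in NOD.Ln82-LCMV gp33 mice, against 6.52 to 6.80 in NOD.Ln82-LCMV control mice.

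The difference between the gp33 responses, NOD.LCMV minus NOD.Ln82-LCMV, was called for 0 of the 8 genes by limma, while 8.73% of all genes were called (4.46% higher and 4.26% lower). At an unadjusted p under 0.05 there were 2 of the 8 and 20.5% of all genes, so 2 of 8 is near the background. For Rsad2 the response was larger in NOD.LCMV by 0.61 ± 0.22 (limma adjusted p = 0.108, unadjusted p = 0.0140). Leaving out NOD.Ln82-LCMV control replicate 1 brought its adjusted p to 0.0200, with a difference of 0.75. Without NOD.LCMV gp33 replicate 1 the difference was 0.41. Over all arrays left out in turn, the limma adjusted p for Rsad2 ran from 0.0200 to 0.260. For Stat2 the difference was 0.26 ± 0.10 (limma adjusted p = 0.160, unadjusted p = 0.0258). The other 6 lay between -0.10 (Bst2) and 0.20 (Ifit1). So Rsad2 passed the test in 1 strain and not in the other, and the responses were not shown to differ. By the same test 10 of the 14 interferon-gamma-responsive genes responded more in NOD.LCMV mice.

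The strains were then compared within each peptide, as NOD.LCMV minus NOD.Ln82-LCMV. With gp33, Bst2 was lower and Stat2 higher in NOD.LCMV, and the other 6 genes did not pass the test. Bst2 measured 9.49, 9.20 and 9.09 in NOD.LCMV gp33 mice, against 9.81, 9.95, 9.85, 9.71 and 9.74 in NOD.Ln82-LCMV gp33 mice. Every NOD.LCMV mouse lay below every NOD.Ln82-LCMV mouse. The difference of -0.55 ± 0.10 (n = 3 and 5) was 0.682-fold with a 95% interval of 0.587 to 0.792 and an adjusted p of 0.000698 in limma. Leaving out each array in turn gave -0.67 to -0.47, and an exact permutation test gave p = 0.0357, the smallest that 3 mice against 5 allow.

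Stat2 measured 10.34, 9.94 and 10.02 in NOD.LCMV gp33 mice, against 9.83, 9.86, 9.79, 9.74 and 9.76 in NOD.Ln82-LCMV gp33 mice, again with no overlap. The difference of 0.30 ± 0.07 was 1.23-fold (95% interval 1.11 to 1.37) with an adjusted p of 0.00462 in limma and an exact permutation p of 0.0357. It depended in size on NOD.LCMV gp33 replicate 1, without which it was 0.18 with an adjusted p of 0.0223. Irf9, whose product pairs with STAT2 in ISGF3, was also higher in NOD.LCMV, by 0.25 ± 0.08 (limma adjusted p = 0.0304). Without that replicate Irf9 was 0.14 higher with an adjusted p of 0.225, and its call was also lost without replicate 1, 3 or 5 of the NOD.Ln82-LCMV gp33 mice and when the groups compared were fitted alone. The background was 27% of genes called (10.2% higher and 16.8% lower), and 1 of the 8 genes was called in each direction, which is close to it. At an unadjusted p under 0.05 in limma there were 5 of the 8 and 35% of all genes. The 8 genes moved together within groups, as given below, so such counts are not of independent results.

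Ifit3 measured 9.35, 8.19 and 8.59 in NOD.LCMV gp33 mice, against 9.24, 9.36, 9.46, 9.64 and 9.20 in NOD.Ln82-LCMV gp33 mice. NOD.LCMV gp33 replicate 1 lay among the NOD.Ln82-LCMV mice and the other 2 well below them, and the difference of -0.67 ± 0.25 missed the threshold (limma adjusted p = 0.0638). Ifit1 showed the same layout, with 9.23, 8.41 and 8.84 in NOD.LCMV gp33 mice, against 9.01, 9.29, 9.19, 9.50 and 8.97 in NOD.Ln82-LCMV gp33 mice (-0.37 ± 0.17, limma adjusted p = 0.127). Usp18 measured 10.47, 9.68 and 9.92 in NOD.LCMV gp33 mice, against 10.27, 10.34, 10.45, 10.57 and 10.17 in NOD.Ln82-LCMV gp33 mice (-0.34 ± 0.18, limma adjusted p = 0.221). When NOD.LCMV gp33 replicate 1 was left out, 6 of the 8 genes were called: Bst2, Ifit1, Ifit2, Ifit3 and Usp18 lower and Stat2 higher. Ifit3 then stood at -0.99 with an adjusted p of 0.00822 in limma. That mouse was the highest of its group on all 8 genes, so leaving it out lowers these differences by construction. Without replicate 2 of the same group 2 genes were called, as with all arrays. Leaving out NOD.Ln82-LCMV control replicate 1, which is not in this comparison but feeds the shared variance, gave 3 calls. Rsad2 went the other way, with 0.35 ± 0.15 (limma adjusted p = 0.111), and Mx1 measured -0.04 ± 0.13.

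With the control peptide 1 of the 8 genes, Bst2, was called and it was lower in NOD.LCMV. Among all genes 10.3% were called (4.77% higher and 5.54% lower). At an unadjusted p under 0.05 in limma there were 4 of the 8 and 22.3% of all genes. Bst2 measured 9.22, 9.24 and 9.15 in NOD.LCMV control mice, against 9.39, 9.64, 9.68 and 9.91 in NOD.Ln82-LCMV control mice. The groups did not overlap, and the difference of -0.45 ± 0.11 (n = 3 and 4) was 0.731-fold (95% interval 0.625 to 0.855, limma adjusted p = 0.0128). An exact permutation test gave p = 0.0571, the smallest that 3 mice against 4 allow. Without NOD.LCMV control replicate 3 the call was lost, at an adjusted p of 0.0639.

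Ifit3 measured 8.54, 8.28 and 8.17 in NOD.LCMV control mice, against 8.39, 9.47, 9.38 and 9.53 in NOD.Ln82-LCMV control mice. The NOD.LCMV mice lay with NOD.Ln82-LCMV control replicate 1 and below the other 3. Ifit1 measured 8.77, 8.51 and 8.35 in NOD.LCMV control mice, against 8.83, 9.18, 9.10 and 9.32 in NOD.Ln82-LCMV control mice, with no overlap. The differences of -0.86 ± 0.26 for Ifit3 and -0.56 ± 0.17 for Ifit1 each fell just short of the threshold, with adjusted p of 0.0507 in limma. Usp18 measured 9.87, 9.88 and 9.61 in NOD.LCMV control mice, against 9.76, 10.29, 10.31 and 10.71 in NOD.Ln82-LCMV control mice (-0.48 ± 0.19, limma adjusted p = 0.142).

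Whether these near misses passed the threshold rested on single mice, while the differences kept their sign. Leaving out each array in turn gave -0.68 to -0.47 for Ifit1, -1.13 to -0.75 for Ifit3 and -0.65 to -0.33 for Usp18. Without NOD.Ln82-LCMV control replicate 1, Bst2, Ifit1, Ifit3 and Usp18 were all called lower, and without NOD.LCMV control replicate 3 none of the 8 was called. Leaving out NOD.LCMV gp33 replicate 1 or 2 gave 3 calls, and leaving out replicate 4 or 5 of the NOD.Ln82-LCMV gp33 mice, or replicate 1 of the NOD.LCMV control mice, gave 2. Ifit2 differed by -0.12 ± 0.07 with no overlap, Rsad2 by -0.26 ± 0.16, Mx1 by -0.06 ± 0.14 and Stat2 by 0.05 ± 0.07, all with an adjusted p of 0.371 or more in limma. Over the 8 genes 7 differences were negative, with a median of -0.36 against 0.01 over all genes. With gp33, 6 were negative with a median of -0.23, against -0.02 over all genes. That median was -0.41 without NOD.LCMV gp33 replicate 1 and -0.095 without replicate 2. The comparisons within each peptide use different mice.

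**Figure D3:**
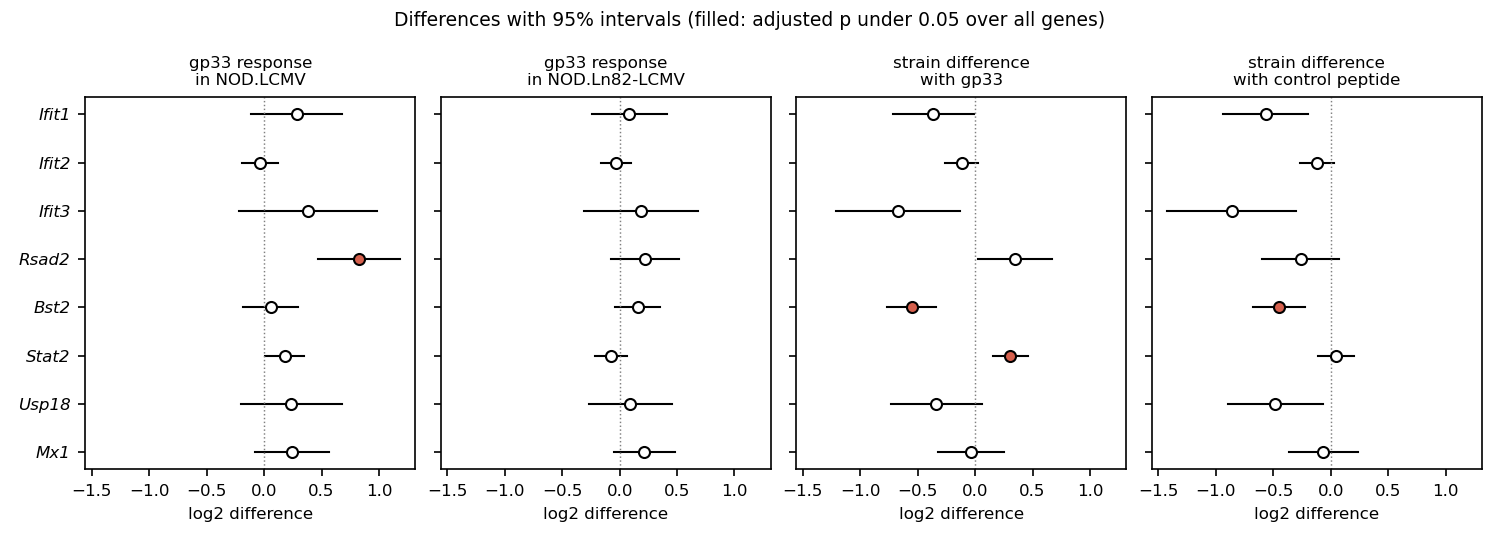
Log2 difference of each of the 8 genes in 4 comparisons, gp33 minus control peptide within each strain and NOD.LCMV minus NOD.Ln82-LCMV within each peptide. Points are limma estimates, lines are 95% intervals and filled points have an adjusted p under 0.05 over all genes; the filled points are Rsad2, Bst2 and Stat2, and both strain panels show most genes left of 0.

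Ifit3b, a near-identical neighbour gene of Ifit3, was looked at after its values were seen, because transcripts of one could bind probes of the other. It measured 5.71, 5.43 and 5.46 in NOD.LCMV gp33 mice, against 5.56, 5.73, 5.73, 6.10 and 5.42 in NOD.Ln82-LCMV gp33 mice. It measured 5.26, 5.25 and 5.20 in NOD.LCMV control mice, against 5.39, 5.45, 5.63 and 5.90 in NOD.Ln82-LCMV control mice. How far probes of Ifit3 and Ifit3b share signal was not tested.

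The wider interferon lists were compared between the strains in the same way. Of the 35 other type I interferon-stimulated genes, 2 were called higher and 8 lower in NOD.LCMV with gp33, in all 28.6% against 27% of all genes. With the control peptide 0 were called higher and 6 lower, in all 17.1% against 10.3% of all genes. Isg20, an RNA exonuclease gene, measured 10.82 to 10.87 in NOD.LCMV gp33 mice, against 11.36 to 11.66 in NOD.Ln82-LCMV gp33 mice (-0.65 ± 0.08). With the control peptide it measured 10.91 to 10.97 in NOD.LCMV mice, against 11.12 to 11.46 in NOD.Ln82-LCMV mice (-0.40 ± 0.08, limma adjusted p = 0.00494). Medians over the 35 genes were -0.08 with gp33 and -0.11 with the control peptide. Of the 10 receptor and signalling genes 4 were called higher with gp33 (40%, against 27% of all genes). With the control peptide 1, Tyk2, was called higher (10%, against 10.3%). Of the 14 interferon-gamma-responsive genes 10 were called higher and 3 lower with gp33 (92.9%, against 27%). With the control peptide 0 were called higher and 3 lower (21.4%, against 10.3%). For interferon ligands, Ifng was called higher with gp33, and Ifna5, an interferon alpha gene, was called higher with the control peptide (0.21). Each was 1 call among 13 ligands (7.69%).

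Markers of several cell types differed between the strains as well. Among all genes 16.8% were called lower and 10.2% higher in NOD.LCMV with gp33. With the control peptide these shares were 5.54% lower and 4.77% higher. Bst2 is also a surface marker of plasmacytoid dendritic cells. Of 8 other markers of those cells, 3 were called lower and 0 higher in NOD.LCMV with gp33, and 1 lower and 1 higher with the control peptide. Those lower with gp33 were Ccr9 (-0.18 ± 0.06), Ly6d (-1.80 ± 0.25) and Tlr9 (-0.45 ± 0.12). Whole thymus does not show which cells carry these 3 transcripts, so their calls are not specific to plasmacytoid dendritic cells. Cox6a2, Siglech, Spib and Tlr7 passed the test with neither peptide. With the control peptide Ly6d was lower (-1.37 ± 0.26) and Pacsin1 higher (0.45 ± 0.10). Ly6d had the largest difference of the 8 with either peptide, so the list means lean on it. Siglech, the defining surface receptor of plasmacytoid dendritic cells, differed by -0.33 ± 0.18 with gp33 (limma adjusted p = 0.212), and Pacsin1 by 0.21 ± 0.09 (limma adjusted p = 0.121). The mean of the 8 markers was 8.75 to 9.02 in NOD.LCMV gp33 mice, against 9.12 to 9.40 in NOD.Ln82-LCMV gp33 mice. It was 8.87 to 9.13 in NOD.LCMV control mice, against 9.07 to 9.41 in NOD.Ln82-LCMV control mice. Of 5 B-cell markers 4 were called lower with gp33 and 1 with the control peptide. Their mean was 7.43 to 7.85 in NOD.LCMV gp33 mice, against 8.31 to 8.88 in NOD.Ln82-LCMV gp33 mice, and 7.40 to 8.29 in NOD.LCMV control mice, against 7.73 to 8.64 in NOD.Ln82-LCMV control mice. Of 10 markers of conventional dendritic cells and macrophages 5 were called lower with gp33 and 1 with the control peptide. The part of these cells in the strain differences of the 8 genes was not tested, and since the labels name no batch, strain and any batch shared by its arrays cannot be told apart.

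Within groups the 8 genes moved together from mouse to mouse. Over the 15 mice, each gene's deviations from its group means were correlated with those of every other gene, as a description of arrays that share one normalisation. All 28 pairs gave a positive Pearson correlation, with a median of 0.685 and 27 pairs over 0.5. Ifit3 and Usp18 were the closest pair, at 0.937, and Bst2 and Mx1 the least close, at 0.339. Leaving out the 2 mice farthest from the median, NOD.LCMV gp33 replicate 1 and NOD.Ln82-LCMV control replicate 1, gave a median of 0.608 and 18 pairs over 0.5. The order of the mice was not the same for all genes: Stat2 and Ifit3 gave a Pearson correlation of 0.624 and a Spearman correlation of 0.436. In NOD.LCMV gp33 mice replicate 1 was highest on 8 genes and replicate 2 lowest on 7, and in NOD.LCMV control mice replicate 3 was lowest on 7. In NOD.Ln82-LCMV control mice replicate 4 was highest on 7.

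The means of the marker lists followed this order to differing degrees. In NOD.LCMV gp33 mice 1, 2 and 3, medullary epithelial markers averaged 8.98, 8.70 and 8.84 and plasmacytoid dendritic cell markers 9.02, 8.75 and 8.88. In NOD.Ln82-LCMV control mice 1, 2, 3 and 4, medullary epithelial markers averaged 8.46, 8.69, 8.67 and 8.89 and plasmacytoid dendritic cell markers 9.07, 9.25, 9.16 and 9.41. In these groups the mouse with the highest mean of the 8 genes was the highest for both lists. It was also the highest for thymocyte markers, with 11.56 in NOD.LCMV gp33 replicate 1 and 11.83 in NOD.Ln82-LCMV control replicate 4. In NOD.Ln82-LCMV gp33 mice the 8 genes were highest in replicate 4 but medullary epithelial (8.88) and plasmacytoid dendritic cell markers (9.40) in replicate 3. In NOD.LCMV control mice the 8 genes were highest in replicate 1, as were plasmacytoid dendritic cell markers (9.13), but medullary epithelial markers (8.62) were highest in replicate 2. B-cell markers ranked the mice as the 8 genes did in every group but NOD.Ln82-LCMV control. They averaged 7.85, 7.43 and 7.44 in NOD.LCMV gp33 mice 1, 2 and 3, and 8.29, 7.79 and 7.40 in NOD.LCMV control mice. In NOD.Ln82-LCMV gp33 mice 1 to 5 they averaged 8.52, 8.53, 8.70, 8.88 and 8.31. In NOD.Ln82-LCMV control mice 1 to 4 they averaged 7.73, 8.644, 8.392 and 8.638. The part of these cell types in the shared movement was not tested.

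Among 17067 other named genes, those whose deviations were most like the mean of the 8 genes were Irf9 (r = 0.961), Irf7 (0.960), Xaf1 (0.957), Lgals3bp (0.956) and Slamf7 (0.947). Their Spearman correlations were 0.902, 0.920, 0.981, 0.923 and 0.960, and without the 2 farthest mice the Pearson correlations were 0.914, 0.913, 0.933, 0.920 and 0.918. Of the 20 most alike genes, 11 belonged to the interferon lists. The rest were Slamf7, Tbc1d8, Plxna1, Samhd1, Hvcn1, Foxn1, Endou, Il7r and Rnase6, at 0.947 to 0.912. The share of list genes among all 17067 was not counted. Irf7 encodes a transcription factor for type I interferon genes and Slamf7 a receptor of immune cells. Being alike from mouse to mouse did not mean a like response to gp33. In NOD.LCMV mice Slamf7 rose by 1.42 ± 0.13 and Irf9 by 0.37 ± 0.09, whereas Irf7 (-0.01 ± 0.20), Lgals3bp (0.01 ± 0.12) and Xaf1 (0.10 ± 0.16) did not pass the test.

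**Figure D4:**
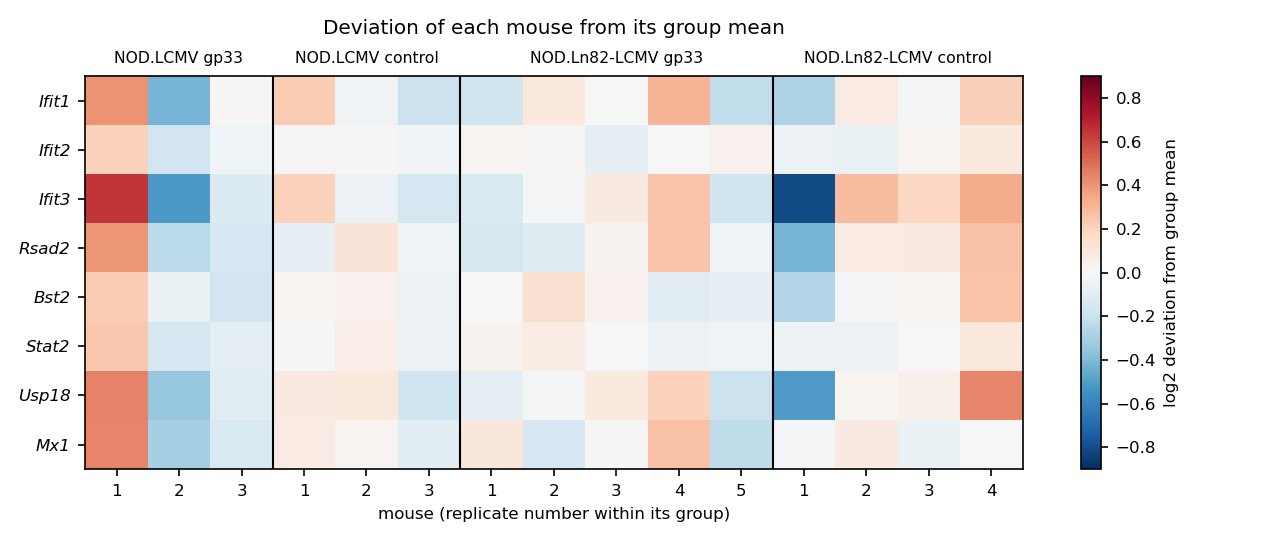
Deviation of each mouse from the mean of its own group, in log2, for the 8 genes (rows) and the 15 mice (columns, numbered by replicate within the group); red is above and blue below the group mean. Columns tend to be of 1 colour, with NOD.LCMV gp33 replicate 1 the reddest column and NOD.Ln82-LCMV control replicate 1 the bluest for Ifit3 and Usp18.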

How the data were processed

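The deposited values are log2 signals of 35556 probe sets on Mouse Gene 1.0 ST arrays. The authors ran RMA with Affymetrix Expression Console 1.1, per the submitters' processing notes. RMA subtracts background, quantile-normalises and summarises probes, so values compare between arrays for 1 probe set. No further normalisation was applied. Probe sets with 1 gene symbol in the platform annotation (21789) were kept, with the highest mean for the 999 genes that had several. Groups came from the strain and treatment labels.

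All 15 arrays entered 1 limma 3.58.1 model (R 4.3.3) with 4 group means and empirical Bayes variances (14.9 degrees of freedom). Two-sided tests were adjusted by Benjamini-Hochberg over 19938 genes, and a gene was called at an adjusted p under 0.05. The fit was run on simulated data with independent errors and with changes in the NOD.LCMV gp33 group only. The members moved together within groups, so that run checks the code and not the calls given here. Named pathway genes were those of smallest adjusted p per list, the interferon ligands and receptors, and the 5 genes most like the members. The members and lists were chosen with earlier results of these data known. Alternatives covered normalisation, dim genes, probe sets, variance model, array weights, samples fitted, a replicate block and each array left out. Leaving out both outlying arrays was chosen after seeing the data. The number of arrays limits the precision, and no background level was measured. Promoters came from RefSeq (GRCm38.p6), and the build of the array annotation is not given in the sources used here, so gene coordinates are not reported.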

Additional observations from a re-analysis of the deposited data

Results flagged for a closer look

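Some single mice lay far from the rest of their group by Dixon's test. The test was run in the NOD.Ln82-LCMV groups only, since groups of 3 mice are too small for it, so nothing is said of single NOD.LCMV mice. Of 96 gene and group combinations tested, 6 were past the 95% critical value, and chance alone gives about 1 in 20. Among the 8 genes this was Ifit3 in NOD.Ln82-LCMV control replicate 1, at 8.39 against 9.38 to 9.53 in the other 3 mice of its group. In NOD.Ln82-LCMV gp33 mice, replicate 5 had 4.94 for Ifna13 (others 4.75 to 4.80) and 8.79 for Ifna5 (others 8.57 to 8.62), replicate 2 had 9.47 for Socs1 (others 9.60 to 9.64), and replicate 1 had 8.02 for Gbp5 (others 7.71 to 7.78). In NOD.Ln82-LCMV control replicate 1, Cd274 had 10.25 (others 10.38 to 10.39).

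The gp33 response differed between the strains, NOD.LCMV minus NOD.Ln82-LCMV and called by limma, for 13 of 47 genes compared, none of them among the 8 members. Many of the 47 were picked for a small adjusted p in their list, so this share is not one of the lists: 8.73% of all genes were called, 3 of the 35 other type I interferon-stimulated genes and 1 of the 13 ligands. It was larger in NOD.LCMV for Ifng (2.3), Gbp5 (2.946), Cxcl9 (2.732), Irf1 (1.627), Cd274 (1.321), Slamf7 (1.263), Jak2 (0.9712), Socs1 (0.9362), Parp14 (0.9257), Ifi205 (0.857) and Myd88 (0.5373). It was lower in NOD.LCMV for Tlr3 (-0.5468) and Sp100 (-0.4147).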

How the results depend on the processing

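The call of Rsad2 with gp33 in NOD.LCMV mice and those of Bst2 and Stat2 between strains with gp33 held in every setting run. Numbers of members called moved as follows. With array weights, 3 were called for gp33 in NOD.LCMV, 2 for the difference between responses and 4 for the strain difference with control peptide, but this setting also called 25.9%, 15.9% and 21.8% of all genes there. The strain difference with control peptide also gave 2 after a second quantile normalisation, after median centring and with the groups compared alone. It gave 3 without the dimmest 33.3% of genes and with a variance trend. Without both outlying arrays it gave 5, and that setting gave 1 for the difference between responses and 6 for the strain difference with gp33. Those 2 arrays were picked on the mean of the member genes itself. They were the highest NOD.LCMV gp33 mouse and the lowest NOD.Ln82-LCMV control mouse, so leaving them out lowers both strain differences by construction. NOD.LCMV gp33 replicate 2, nearly as far on the other side (-0.28), was kept. The counts of this setting therefore give no support to a strain difference. The strain difference with gp33 gave 3 in place of 2 after a second quantile normalisation and with array weights (Rsad2 added), and without the dimmest 33.3% and with the groups compared alone (Ifit3 added). Leaving out 1 array at a time gave 1 to 2 members for gp33 in NOD.LCMV, 0 to 0 in NOD.Ln82-LCMV, 0 to 1 for the difference between responses, 2 to 6 between strains with gp33 and 0 to 4 with control peptide. The medians then ranged over 0.04167 to 0.4008, -0.03 to 0.228, -0.09317 to 0.3262, -0.408 to -0.095 and -0.47 to -0.2533. The cause was not tested.

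Of 40 member results, 11 changed sign somewhere, all of them uncalled. Without both outlying arrays, gp33 in NOD.Ln82-LCMV gave -0.008 for Ifit1, -0.08 for Ifit3 and -0.07667 for Usp18, gp33 in NOD.LCMV gave -0.05833 for Bst2, and the difference between responses gave -0.186 for Mx1. With array weights Ifit2 was 0.0302 for gp33 in NOD.LCMV and 0.08577 for the difference between responses, which was 0.01991 after a second quantile normalisation and 0.05067 after median centring. Mx1 between strains with gp33 was 0.016 with median centring and 0.1163 with array weights, and Ifnb1 was 0.003333 with median centring. With 1 array left out, gp33 in NOD.Ln82-LCMV ranged over -0.008 to 0.1553 for Ifit1, -0.08 to 0.3 for Ifit3 and -0.07667 to 0.24 for Usp18, and gp33 in NOD.LCMV over -0.1417 to 0.04833 for Ifit2 and -0.05833 to 0.1417 for Bst2. The difference between responses ranged over -0.002833 to 0.4072 for Ifit1, -0.1072 to 0.08283 for Ifit2, -0.1275 to 0.46 for Ifit3, -0.07917 to 0.3158 for Usp18 and -0.1927 to 0.1773 for Mx1, and Mx1 between strains with gp33 over -0.256 to 0.114.

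With the replicate number of NOD.Ln82-LCMV mice as a block (correlation -0.146) the calls were 1, 0, 0, 2 and 1, as without it. Deviations of mice with the same number correlated at 0.117, 0.008, -0.050 and -0.226, and only number 1 correlated best with its own. No pairing by number was seen, but deviations from the means of groups this small cannot exclude it. With 3 to 5 mice a group, differences within the intervals given could not be told from 0.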
